A study of Rattus norvegicus with 6 samples.

Results

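Tip-like endothelial cells of the spinal cord were examined in 4 single-cell RNA libraries, of an intact cord and of cords taken 1, 3 and 7 days after a crush injury. A cell was counted as endothelial when the junction and vessel genes Cldn5, Flt1, Pecam1, Cdh5 and Egfl7 together made up at least 10 of every 10000 of its UMIs (unique molecular identifiers, counted molecules). The phagocyte genes C1qa, C1qb and Tyrobp had to hold at most 20 of every 10000. It was counted as tip-like when Apln, Esm1, Pgf and Angpt2 together gave at least 2 UMIs. The rule found 585 tip-like cells among 4943 endothelial cells and 26847 cells of the time course, in a series of 30699 cells. They were set beside the 4075 endothelial cells with 0 UMIs of these 4 genes, called the other endothelial cells below. The 283 endothelial cells with exactly 1 UMI belong to neither class.

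Each library stands for 1 group, so days could not be tested against each other. The labels give the species as rat, the strain as SD, an age of 6 to 8 weeks, 5 animals per condition, a crush at thoracic level 10 and a 5-mm section of cord. The intact library is called intact in its title, which was followed, although its treatment entry names the crush. Many gene names in these tables have mouse forms: 7654 of the 28615 shared names are of the Gm, Rik or ENSMUSG forms and 4235 other symbols are absent from the rat gene table used here. The species was therefore taken only as the labels state it. The libraries held between 2757 and 9263 cells, between 9663877 and 72515788 UMIs and a median of 3090 to 6648 UMIs per cell. Any 2 of them shared between 20 and 91 cell barcodes.

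Tip cells lead a sprouting capillary. Under vascular endothelial growth factor they extend filopodia, break down and lay down basement membrane and pull a stalk of following cells behind them, while Notch signalling between neighbours limits how many form. Apelin (Apln) is a secreted peptide made by sprouting endothelium, placental growth factor (Pgf) is a ligand of the receptor Flt1, angiopoietin 2 (Angpt2) is a ligand of the receptor Tek that loosens contacts with pericytes, and Esm1 encodes endocan, a secreted proteoglycan. In the adult central nervous system resting vessels carry a blood-brain barrier of tight junctions and transporters. Levels are given as CPM, a gene's UMIs scaled to the same total for each class after summing its cells. Ranges in brackets are 95% intervals that cover counting error only.

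The promoters of 2 genes of the rule and of Adm, which is described further below, are shown because all 3 encode secreted ligands that stood high in the tip-like cells. They are the RefSeq sequences of rat assembly GRCr8, 250 bases before to 50 bases after the start of each gene, written 5′ to 3′. The Apln promoter lies at chrX:132091197-132091496 on the minus strand, the Pgf promoter at chr6:110557698-110557997 on the minus strand and the Adm promoter at chr1:174179950-174180249 on the plus strand. Capitals mark the core letters that the hypoxia-inducible factors are known to bind, searched as ACGTG and GCGTG on both strands.
Apln: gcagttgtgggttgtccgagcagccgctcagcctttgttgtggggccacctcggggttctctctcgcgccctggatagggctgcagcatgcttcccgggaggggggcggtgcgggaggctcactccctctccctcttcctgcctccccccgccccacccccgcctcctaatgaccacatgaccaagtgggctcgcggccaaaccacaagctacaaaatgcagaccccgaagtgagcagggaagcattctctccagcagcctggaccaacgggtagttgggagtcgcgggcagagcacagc
Pgf: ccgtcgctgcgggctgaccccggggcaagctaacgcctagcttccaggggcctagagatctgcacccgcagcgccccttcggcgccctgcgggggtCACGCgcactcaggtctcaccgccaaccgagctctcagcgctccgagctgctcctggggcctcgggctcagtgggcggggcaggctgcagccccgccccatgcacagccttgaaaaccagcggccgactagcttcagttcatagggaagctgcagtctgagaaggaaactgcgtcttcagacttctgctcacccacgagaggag
Adm: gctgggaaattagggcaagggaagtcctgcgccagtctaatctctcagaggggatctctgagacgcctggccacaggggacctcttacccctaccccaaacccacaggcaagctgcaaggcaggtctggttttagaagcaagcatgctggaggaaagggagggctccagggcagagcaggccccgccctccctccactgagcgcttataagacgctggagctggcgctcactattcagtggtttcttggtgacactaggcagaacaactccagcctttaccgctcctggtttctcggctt
The Pgf promoter held 1 match and the others none in this window. Of 27457 promoters of this length 42.9% held a match, and of the 6128 promoters of genes tested below 64.6% did. The Esm1 promoter, not shown, held 2 matches. Neither the AP-1 letters TGANTCA nor the TEAD letters GGAATG were found in the 3 sequences, and these letters are in 7.33% and 13.9% of all promoters and in 4.42% and 10.7% of those of tested genes.

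Nearly all tip-like cells came from the first days after injury. At day 1 they were 469 of 1217 endothelial cells, 38.5% (exact binomial interval 35.8 to 41.3), and at day 3 they were 101 of 1400, 7.21% (5.91 to 8.70). The intact cord held 8 of 1165, 0.687% (0.297 to 1.35), and day 7 held 7 of 1161, 0.603% (0.243 to 1.24). The intervals of days 1 and 3 lie apart from each other and from those of the intact cord and day 7, which overlap. They cover counting error within 1 library per day, so their distance is no test between days. These shares use the genes of the rule and are a description. In phagocytes, which should lack these genes, the share with at least 2 UMIs was 0% of 935 cells in the intact cord, 1.01% of 4467 at day 1, 0.891% of 6847 at day 3 and 0.0363% of 5510 at day 7. Their median depths were 3342, 5336, 7335 and 3953 UMIs.

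Tip-like cells carried more UMIs than the other endothelial cells. The medians were 4019.5 against 2843 in the intact cord, 6071 against 3503 at day 1, 9167 against 3624 at day 3 and 4622 against 2556 at day 7. Since a deeper cell reaches 2 UMIs more easily, every cell was also thinned to 1000 UMIs. The shares were then 0.343%, 19.3%, 2.07% and 0.172% from intact to day 7; the order of the libraries was the same. Just inside the threshold, 67 cells of day 1 and 36 of day 3 held exactly 2 UMIs, while 133 and 92 held exactly 1. At the far end, 212 cells of day 1 and 29 of day 3 held 10 or more.

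**Figure D1:**
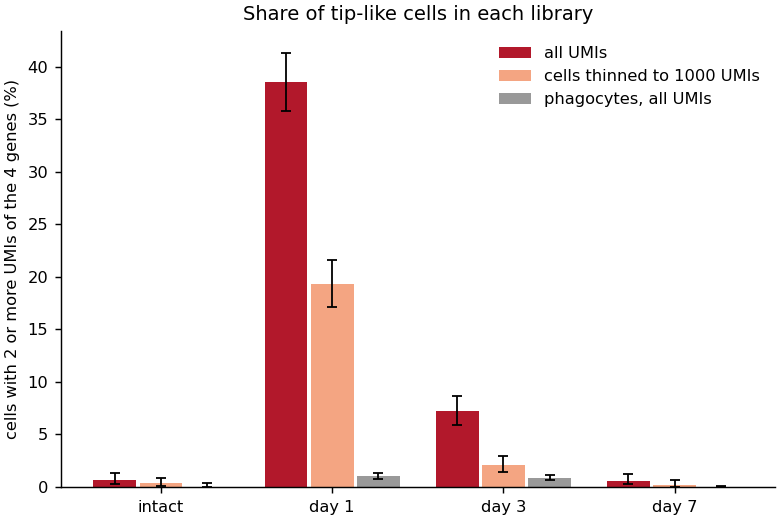
Share of endothelial cells with at least 2 UMIs of Apln, Esm1, Pgf and Angpt2 in each library (vertical axis, percent), from all UMIs and after thinning every cell to 1000 UMIs, with phagocytes beside them. Bars are shares of cells in 1 library each and whiskers are exact 95% binomial intervals. Day 1 stands highest at 38.5%, or 19.3% after thinning.

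Apln, Pgf and Angpt2 defined these cells, and Esm1 did not, so the label holds for them only in part. Apln stood at 1134 CPM (1099 to 1170) in the tip-like cells of day 1 and 431 (394 to 470) at day 3. It was 581.8 (345 to 919) at day 7 and 153 (49.8 to 358) in the intact cord. Pgf stood at 490, 321, 452 and 276 CPM in the same order, and Angpt2 at 451, 141, 291 and 337. Esm1 was at 1.17 CPM at day 1, from 4 UMIs, and had 0 UMIs at days 3 and 7 and 1 UMI in the intact cord. Endocan, one of the best known tip cell genes, was thus next to absent from the tip-like cells. The endothelial genes of the gate were present, with Cldn5 at 3183 CPM in tip-like and 5836 in other endothelial cells of day 1 and Cdh5 at 751 and 389. Of the 469 Esm1 UMIs in the whole day 1 library, 441 were in 102 cells below the endothelial gate that were not phagocytes by the gate. In the 54 cells of day 1 with at least 3 Esm1 UMIs the summed fibroblast markers stood at 9297 CPM, against 626 over all cells, and the endothelial genes of the gate at 92.4 CPM, against 1430.

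**Figure D2:**
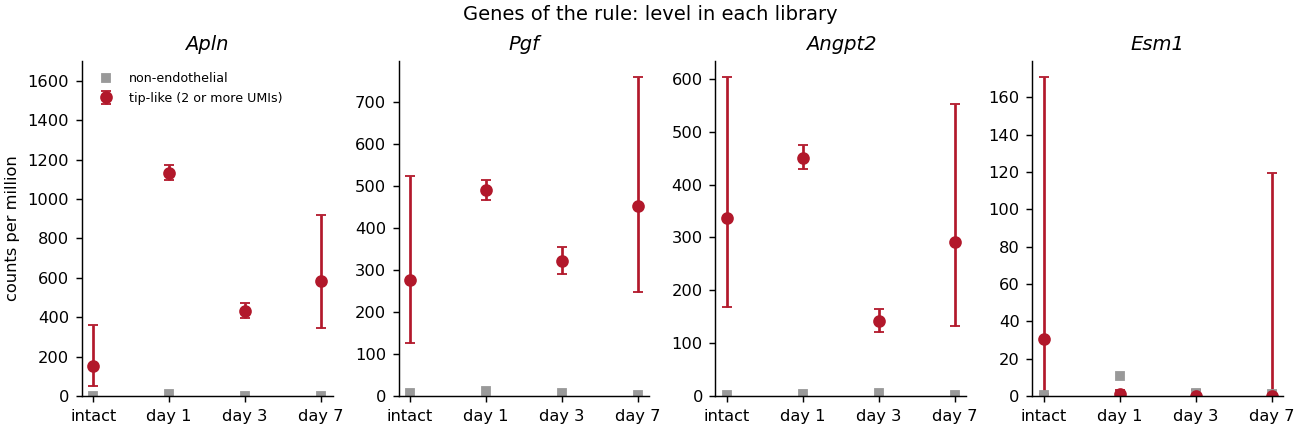
Level of each gene of the rule in CPM (vertical axis) in the tip-like cells and in the non-endothelial cells of each library. Points are sums over cells of 1 library and whiskers are exact 95% Poisson intervals. Apln, Pgf and Angpt2 are high in tip-like cells by the rule, while Esm1 stays near 0.

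The 3 genes were often found in the same cell. When cells were called by the other 3 genes of the rule, a measure that the left-out gene does not enter, Apln at day 1 stood at 1235 CPM in the cells called and 110 in those with 0 UMIs of the other genes, an 11.2-fold ratio (10.1 to 12.5). The Pgf ratio was 33.5-fold (24.9 to 46.1) and the Angpt2 ratio 7.33-fold (6.37 to 8.47). At day 3 the ratios were 36.4-fold for Apln, 32.3-fold for Pgf and 13.6-fold for Angpt2. Left-out Esm1 gave 0.586 against 1.99 CPM at day 1. At day 1 141 of 469 tip-like cells held UMIs of 3 of the genes, 204 of 2 and 123 of 1. At day 3 the numbers were 21, 41 and 39 of 101. In the intact cord 5 of 8 tip-like cells held only 1 of the genes, and the 9 Pgf UMIs there came from 1 cell.

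Markers of other cell types differed by library. The 14 pericyte and smooth muscle markers summed to 4356 CPM in the 8 tip-like cells of the intact cord against 203 in the other endothelial cells, with 12 of the 14 higher and 2 at 0. At day 7 the sums were 840 against 193, with 7 of the 14 at 0. They were 434 against 289 at day 1, with 9 of 14 higher, and 534 against 487 at day 3, with 6 of 14 higher and none at 0 on either day. Cells in which pericyte, smooth muscle and fibroblast markers reached 10 of every 10000 UMIs were also left out. This kept 7 of the 8 tip-like cells of the intact cord and 3 of the 7 of day 7. Most of the intact sum thus came from the cell left out, not from all 8. The 12 fibroblast markers summed to 1325 against 333 CPM at day 7, with 9 at 0, and to 219 against 357 and 181 against 352 at days 1 and 3. Microglia and macrophage markers summed to 563 against 610 at day 1 and 1211 against 1292 at day 3, and stood at 13513 and 33884 in all non-endothelial cells. Because of the few cells and these markers, the intact and day 7 cells are given as values only, and the test below rests on days 1 and 3.

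What else set tip-like cells apart was tested with edgeR's quasi-likelihood test on counts summed per class and library, paired within day 1 and within day 3. The 12 genes of the rule were left out. The 2 pairs leave 1 residual degree of freedom. The test therefore takes most of a gene's variance from the other genes (median prior degrees of freedom 12.05). Standard errors were derived from the fold change and the test's F value, so they do not measure the spread between the 2 libraries. Of 7813 genes tested, 211 (2.7%) were higher and 261 (3.34%) lower in the tip-like cells at an adjusted p under 0.05, 472 or 6.04% in all. Of these, 470 had the same direction in both libraries, and 40 were at least 4-fold higher and 15 at least 4-fold lower. The median log2 fold change over all genes tested was -0.02. Without the library as a term, no gene passed the threshold, 370 had an unadjusted p under 0.05, and DESeq2 with the term called 115 higher and 115 lower. Of the markers of other cell types, none of 9 pericyte genes was called by edgeR's test, 3 of them having an unadjusted p under 0.05, of 5 neutrophil genes Ngp and Retnlg were lower, and of 5 fibroblast genes Apod was lower (log2 fold change -1.54 ± 0.28, adjusted p = 0.00988). Summed neutrophil markers stood at 817 against 1607 CPM at day 1 and 181 against 134 at day 3, and fibroblast markers at 219 against 357 and 181 against 352. Leaving out the cells carrying markers of other types kept 89 of the 469 tip-like cells of day 1 and 33 of the 101 of day 3. Of the other endothelial cells it kept 141 of 615 and 186 of 1207. In that smaller set 132 of the 211 higher and 159 of the 261 lower genes were still called. Apod (0.16), Retnlg (0.87) and Prdm16 (0.06), lower in the fit with all cells, then had log2 fold changes above 0 that were not called.

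The 15 genes most raised in tip-like cells by the naming rule had products of various kinds. Trp53i11 stood at 114 against 14.97 CPM at day 1, 186 against 9.65 at day 3 and, with 47.1% of its UMIs in 1 cell, 549 against 8.71 at day 7, with 0 against 3.57 in the intact cord (log2 fold change 3.63 ± 0.31 (SE), adjusted p = 0.00014 in edgeR's quasi-likelihood test). Tip-like cells were the higher class in all 3 injured libraries.

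Adm encodes adrenomedullin, a vasodilator peptide made by endothelium, and was higher in tip-like cells in all 4 libraries. It stood at 429 against 53.8 CPM in the intact cord, 446 against 38.9 at day 1, 127 against 37.6 at day 3 and 356 against 48.6 at day 7. Its fitted log2 fold change was 2.66 ± 0.39 (adjusted p = 0.00753), and 71.4% of its UMIs in the intact tip-like cells came from 1 cell. Its call was lost when cells with markers of other types were left out (log2 fold change 2.45, adjusted p = 0.113). Kit, the receptor of stem cell factor, stood at 55.3 against 3.66 CPM at day 1 and 23.8 against 2.45 at day 3. Chst1, a carbohydrate sulfotransferase, stood at 172 against 19.3 and 68.1 against 5.40. It was found in 52.5% of the tip-like cells and 8.78% of the other endothelial cells of day 1.

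The highest fitted value belongs to Ankrd1, a stress-responsive ankyrin repeat protein known as a target of the YAP and TEAD factors. That value rests on day 1, with 166 UMIs against 2, or 48.6 against 0.665 CPM, while day 3 had 1 UMI against 0. Without the day 1 library the log2 ratio of CPM plus 1 was 0.89, and 7.25% of the tip-like cells of day 1 held the transcript. Itgb3, the beta 3 integrin subunit, stood at 25.7 against 3.99 CPM at day 1 and 20.4 against 2.45 at day 3, and the AP-1 subunit Fosl1 at 67.3 against 9.65 and 15.3 against 2.13. Dbn1, which encodes the actin-binding protein drebrin, stood at 80.5 against 9.98 and 46.8 against 7.36. Sh2d5, Exoc3l4, Ttc9 and Rnf183 were also among the 15 genes with the largest rises, with fitted log2 fold changes between 2.94 and 3.37.

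**Figure D3:**
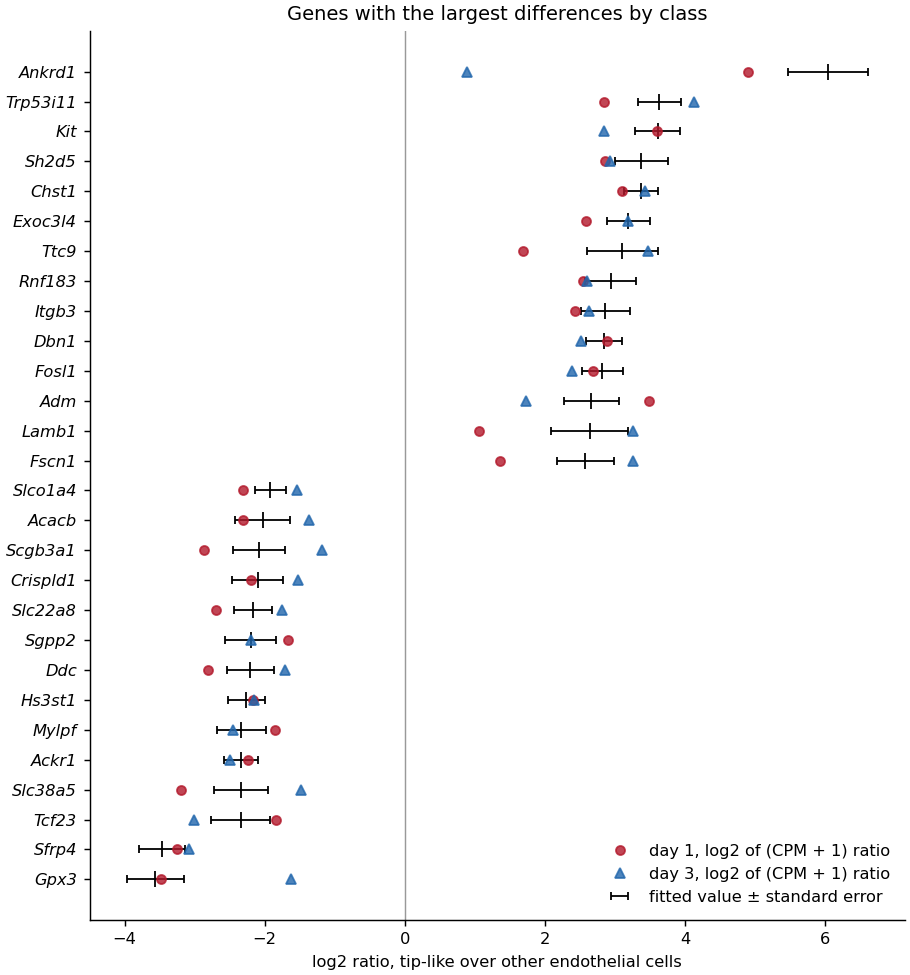
Log2 ratio of tip-like over other endothelial cells (horizontal axis) for the genes most raised and most lowered among those called. Ticks and bars are the fitted value and its standard error from the test, which borrows variance across genes. Symbols are the ratio of CPM plus 1 in each library. Ankrd1 rests on day 1, and most of the lowered transporters differ more at day 1 than at day 3.

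Beyond the rule, genes reported in tip cells were higher as far as they were called, beside 2.7% of all genes tested. Of the 23 tested members of a list of 25 such genes, 10 were higher, none was lower and 13 were not called, with a median log2 fold change of 0.79 beside -0.02 over all genes. Besides Trp53i11 and Adm these were Inhbb, an activin subunit, at 43.0 against 13.0 CPM at day 1 and 16.2 against 1.31 at day 3, and Plaur, the urokinase receptor, at 914 against 321 and 178 against 54.8. The others called were Mcam, Sox4, Igfbp3, Nid2, Lamc1 and Lama4. Several classical members did not pass. The chemokine receptor Cxcr4 stood at 18.7 against 7.65 CPM at day 1 and 9.36 against 4.58 at day 3 (log2 fold change 1.19 ± 0.36, adjusted p = 0.0712). The Notch ligand Dll4 stood at 90.4 against 44.9 CPM at day 1 and at 40.8 against 44.7 at day 3 (0.52 ± 0.27, adjusted p = 0.364), and Unc5b, a netrin receptor, had a log2 fold change of -0.01 ± 0.24. Summed over the list, levels were 5005 against 3018 CPM at day 1 and 3463 against 2743 at day 3, and 3558 against 2674 and 3523 against 2557 in the intact and day 7 libraries.

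Receptors for the ligands of the rule were measured beside them. Of 9 receptors and ligands of the VEGF, apelin and angiopoietin families that could be tested, only Tek, the angiopoietin receptor, was called. It was lower, at 103 against 233 CPM at day 1 and 102 against 215 at day 3 (log2 fold change -1.12 ± 0.20, adjusted p = 0.00595), while the intact cord had 276 against 252. Kdr, the main VEGF receptor of endothelium, had a log2 fold change of -0.16 ± 0.22, and Aplnr, the apelin receptor, one of -0.15 ± 0.52. Of the 9 genes, 4 had an unadjusted p under 0.05 in edgeR's test. Flt1, the receptor of Pgf, is a gene of the gate and was not tested. It stood at 1832 against 1954 CPM at day 1, 890 against 1771 at day 3 and 2945 against 2637 in the intact cord. Of 11 Notch pathway genes tested none was called in either direction, with a median of 0.02, while 5 had an unadjusted p under 0.05 in edgeR's test. Over all genes tested 6.04% were called, a share at which lists this short would hold few calls or none. The smallest adjusted p there belonged to the Notch target Nrarp, at 102 against 42.9 CPM at day 1 and 61.3 against 52.3 at day 3 (adjusted p = 0.111).

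Part of the cytoskeletal and matrix genes was higher as well, beside 2.7% of all genes tested. In all, 9 of 22 cytoskeleton and motility genes were higher and none lower, with a median log2 fold change of 0.54. Fscn1 encodes fascin, the actin bundler of filopodia, and stood at 28.1 against 10.3 CPM at day 1, 115 against 11.1 at day 3 and 226 against 7.21 at day 7, where 71.4% of its UMIs were in 1 cell. The tubulin Tubb6 stood at 1027 against 286 and 350 against 43.2 at days 1 and 3, and Anxa2, Pfn1, Actb, Actg1, Vim, Msn and Tmsb4x were called with log2 fold changes between 0.50 and 1.17. Among basement membrane genes 5 of 13 were higher, namely Lamb1, Col4a1, Col4a2, Nid1 and Hspg2, and Fn1, fibronectin, was lower at 480 against 1375 CPM at day 1 and 727 against 988 at day 3. Their median was -0.03. The collagen IV chain Col4a1 stood at 1210 against 689 CPM and 602 against 279. Of 12 matrix proteases and inhibitors 3 were higher, among them Adamts4 and Timp1. The call of Timp1, an inhibitor of metalloproteinases, was lost when the other cells were matched on UMIs (log2 fold change 0.19, adjusted p = 0.727), as was that of Nid1 (0.50, adjusted p = 0.14). Both calls were also lost with DESeq2, with cells thinned before the call and without cells carrying other types' markers. That of Timp1 was lost with an endothelial gate of 20 of every 10000 as well.

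Genes of growth and metabolism were called in part, where 2.7% of all genes tested were called higher. Of 16 genes of ribosome biogenesis and translation 3 were higher, namely Odc1, the first enzyme of polyamine synthesis, Myc and Eif4ebp1. Odc1 stood at 426 against 105 CPM at day 1 and 317 against 60 at day 3 (log2 fold change 2.21 ± 0.22, adjusted p = 0.000136). Among genes of glycolysis and hypoxia 5 of 21 were higher, with the lactate transporter Slc16a3 at 53.5 against 14.6 and 28.9 against 5.73 CPM and Gapdh at 2042 against 1114 and 1368 against 588, and the stress gene Ddit4 was lower. Of 18 cell cycle genes Ccnd1 and Cdk1 were called. Ccnd1, cyclin D1, stood at 497 against 155 CPM at day 1 and 243 against 71.7 at day 3. Cdk1 rests on day 3, with 61.3 against 21.1 CPM and only 1.46 against 0.665 at day 1, and its log2 fold change was -0.29 when cells were thinned before the call. Its call was also lost with DESeq2, with at least 3 UMIs, with other cells matched on UMIs and without cells carrying other types' markers. The cell cycle list had a median log2 ratio of -0.16 at day 1 and 1.14 at day 3.

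Genes of the blood-brain barrier were lower in the tip-like cells, where 3.34% of all genes tested were called lower. In all, 16 of the 20 members were lower, none was higher and 4 were not called (Lsr, Tjp1, Foxf2 and Slc7a5), with a median log2 fold change of -1.10. Slco1a4, an organic anion and thyroid hormone transporter, stood at 251 against 1246 CPM at day 1 and 455 against 1328 at day 3. At day 7 it was 1164 against 2006, and in the intact cord 2975 against 2348 (1.03 to 1.55 fold). The fitted log2 fold change was -1.92 ± 0.22 (adjusted p = 0.000432). The transporter Slc22a8 stood at 8.48 against 60.2 CPM at day 1 and 98.7 against 334 at day 3 (-2.17 ± 0.27), and the membrane protein Itm2a at 269 against 974 and 1714 against 4454 (-1.61 ± 0.18). Mfsd2a, the lipid transporter that limits transcytosis, had -1.38 ± 0.20 and the tight junction gene Ocln -1.02 ± 0.20. The glucose transporter Slc2a1 was lowered least among those called, at 1671 against 2494 and 1349 against 2383 CPM (-0.69 ± 0.17, adjusted p = 0.0265).

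The list's sum shows both the class and the day. Barrier genes summed to 4455 CPM in tip-like and 9420 in other endothelial cells at day 1, and to 9194 and 19415 at day 3. In the intact cord the sums were 24264 and 24955, and at day 7 14835 and 24001. The other endothelial cells of day 1 thus stood close to the level of the tip-like cells of day 3. Of 15 Wnt and beta-catenin genes, the pathway that maintains the barrier, Nkd1 and Lef1 were lower and none was higher. Over all genes tested 3.34% were lower. Lef1, a transcription factor of the pathway, stood at 75.8 against 147 CPM at day 1 and 79.1 against 143 at day 3.

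Several genes that mark vessel segments were lower as well, beside 3.34% of all genes tested. Among these, 7 of 14 venous genes were lower and none higher, with a median of -0.87. Ackr1, the chemokine scavenger of venules, stood at 123 against 586 CPM at day 1 and 11.1 against 66.7 at day 3 (-2.33 ± 0.24, adjusted p = 0.00015), and its transcript was in 7.46% of tip-like and 14.3% of other cells at day 1. Its call was lost when cells with markers of other types were left out, with a log2 fold change of -1.32 (adjusted p = 0.803). Slc38a5, a glutamine transporter, stood at 44.2 against 413 and 155 against 436 CPM, and had a log2 fold change of -2.34 ± 0.38. Its call was lost with DESeq2 (-2.34, adjusted p = 0.0797) and with other cells matched on UMIs (-2.35, adjusted p = 0.395), at nearly the same fold. In the arterial list 5 of 10 genes were lower, Bmx, Alpl, Eln, Mgp and Stmn2, while Tm4sf1, a membrane protein of endothelial projections, was higher at 4966 against 1485 and 1464 against 774 CPM. Among capillary genes 3 of 10 were lower, among them Tsc22d1 and Ly6c1, and none was higher.

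The remaining lists are given in turn, beside the 6.04% of all genes tested that were called. Of 11 guidance genes 1 was higher, the semaphorin receptor Plxnd1, and 4 were lower, Sema3g, Ntn1, Epha4 and Ephb4. Of 14 TGF-beta and BMP genes Smad1 and Serpinh1 were higher and Tgfb2, Id2 and Id3 lower. Among immediate early genes 4 of 17 were lower, Egr1, Jun, Zfp36 and Junb, and Myadm was higher. The median log2 fold change of this list was -0.78, and 15 of the 17 had an unadjusted p under 0.05 in edgeR's test. By library the median log2 ratio was -0.32 at day 1 and -1.21 at day 3. Jun stood at 1114 against 1661 CPM at day 1 and 1008 against 2713 at day 3. Of 12 genes of leukocyte adhesion and activation, the cytokine genes Csf3 and Cxcl1 were higher, with Csf3 at 50.3 against 8.32 CPM at day 1 and only 0.851 against 0.491 at day 3. None of 16 interferon and MHC genes was called by edgeR's test, and 2 had an unadjusted p under 0.05. Of 8 fenestration and leak genes only Cav1, caveolin 1, was called, at 317 against 103 CPM at day 1 and 607 against 397 at day 3, and Plvap stood at 6.14 against 5.32 and 23.0 against 9.49. Of 19 endothelial identity genes 4 were lower and Ctla2a was higher.

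**Figure D4:**
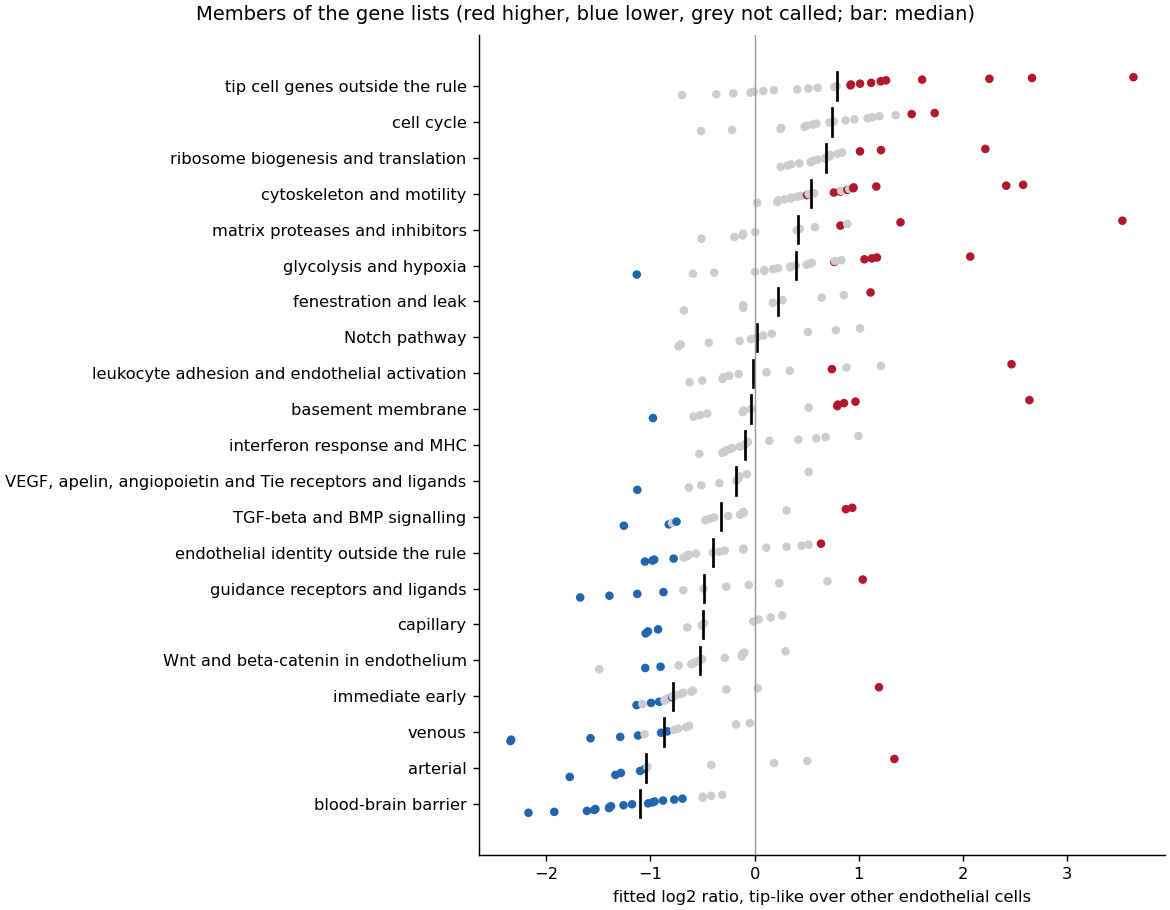
Fitted log2 fold change of tip-like over other endothelial cells (horizontal axis) for every tested member of each gene list, with called members in colour and the list's median as a bar. Barrier, arterial and venous genes lie mostly below 0 and genes reported in tip cells mostly above.

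Several genes with the strongest falls rest on few cells. Gpx3 and Sfrp4 had fitted log2 fold changes of -3.56 and -3.47, but 93.3% of the Gpx3 UMIs and 96.6% of the Sfrp4 UMIs in the other endothelial cells of day 1 came from 1 cell. Without the cell with the most UMIs in each sum, the day 1 log2 ratio of Sfrp4 was 0.96 and that of Gpx3 -0.25. In non-endothelial cells of day 1 Sfrp4 stood at 161 CPM and Gpx3 at 91.7. The barrier genes Slc22a8 and Slco1a4 kept their direction, with Slc22a8 at -2.83 and Slco1a4 at -2.33 on day 1 without the highest cells. Other genes among the 15 with the largest falls included Ddc (an amine-forming decarboxylase), Hs3st1 (a heparan sulfotransferase), Sgpp2, Crispld1, Scgb3a1, Acacb, Mylpf and Tcf23, between -2.03 and -2.35. Scgb3a1, a small secreted protein, stood at 228 against 1662 CPM at day 1 and 91.0 against 207 at day 3. Its call was lost with DESeq2 (log2 fold change -2.01, adjusted p = 0.174), with other cells matched on UMIs (-1.78, adjusted p = 0.157) and without cells carrying other types' markers (-1.93, adjusted p = 0.525). Without such cells the calls of Crispld1 (-0.80, adjusted p = 0.473) and Tcf23 (-1.74, adjusted p = 0.0572) were lost as well. With DESeq2 those of Crispld1 (-2.09, adjusted p = 0.0567) and Acacb (-2.07, adjusted p = 0.0759) were lost.

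Levels were also summed by a cell's number of UMIs of the rule genes. At day 1 barrier genes summed to 9420 CPM in cells with 0 UMIs of the rule genes, 8208 with 1, 6288 with 2, 5139 with 3 to 9 and 3601 with 10 or more. At day 3 the sums were 19415, 14488, 13506, 8838 and 4362 in the same order. Slco1a4 went from 1246 to 92.6 CPM at day 1 and from 1328 to 142 at day 3. Adm went the other way, from 38.9 through 81.1, 141 and 211 to 675 CPM at day 1 and from 37.6 to 226 at day 3. Each of these sums moved in 1 direction over all 5 steps on both days. Kit did not, with 16.5 CPM at 2 UMIs and 15.8 at 3 to 9 UMIs on day 1 and 10.1 at 1 UMI and 0 at 2 UMIs on day 3. Nor did Ackr1 on day 3, with 66.7 CPM at 0 UMIs, 305 at 1 and 7.36 at 2. Trp53i11 stayed at or below 37.0 CPM up to 2 UMIs and reached 195 at day 1 and 398 at day 3 in cells with 10 or more. Of the 470 genes called in the same direction in both libraries, the cells with 1 UMI lay between the classes for 404 at day 1 and 380 at day 3. These genes were picked for a difference between the classes. Sums over cells cannot tell a gradient from a mix of 2 kinds of cell sorted by UMIs. Median depth differed along these steps, between 3503 and 7199.5 UMIs at day 1 and between 3624 and 10887 at day 3, and its part in the result was not tested.

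**Figure D5:**
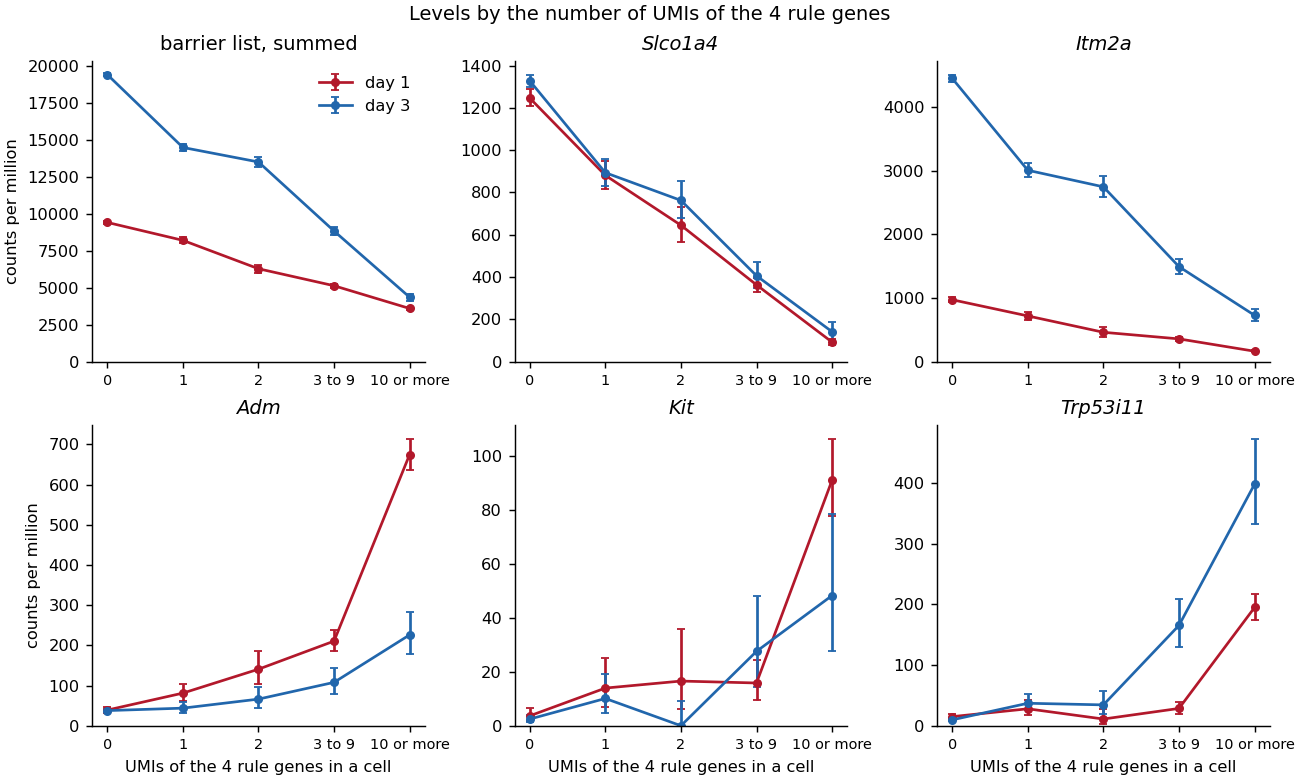
Level in CPM (vertical axis) of the summed barrier list and of 5 genes in endothelial cells grouped by their UMIs of the 4 rule genes (horizontal axis), at day 1 and day 3. Points are sums over cells of 1 library with exact 95% Poisson intervals. The barrier list goes from 9420 to 3601 at day 1, and Adm from 38.9 to 675.

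The calls could be read, without a test, in the small libraries. Enough counts below means a minimum of UMIs over the tip-like sum plus the other sum scaled to its depth. A gene low in the other cells passed only when its tip-like count was high, which favours agreement for the higher genes. Of the 211 genes higher at days 1 and 3, 52 had enough counts in the intact library, and 41 of these were higher there in the 8 tip-like cells, as were 45 of 49 at day 7. Of all tested genes with enough counts, 58.8% of 2261 were higher in the intact library and 57.1% of 1914 at day 7. Of those lower, 99 of 162 were lower in the intact library and 107 of 146 at day 7, beside 41.2% and 42.9% of all tested genes with enough counts. These counts are a description of 8 and 7 cells. Pericyte markers summed to 4356 CPM over the 8, mostly from 1 cell, and to 840 CPM over the 7.

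Between day 1 and day 3 the tip-like cells themselves differed, as far as 1 library per day can show. Of 7549 genes with at least 50 UMIs, 287 (3.8%) were at least 2-fold higher at day 3 and 763 (10.1%) at least 2-fold lower. The other endothelial cells showed the same 2-fold difference for 126 and 299 of these. Sparcl1, a matricellular protein, stood at 81.0 CPM at day 1 and 835 at day 3, 10.3-fold higher (9.01 to 11.8), and was 7.83-fold higher in the other endothelial cells. The proteoglycan Spock2 was 7.70-fold higher (6.84-fold in the others) and the growth factor Ptn 7.53-fold (4.85-fold).

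The other genes highest at day 3 belong to the cell cycle. Birc5 stood at 0.878 CPM at day 1 and 66.4 at day 3, from 3 and 78 UMIs, and Ube2c at 1.17 and 61.3. Both rose in the other endothelial cells too, from 1.33 to 25.7 CPM and from 0.998 to 35.0. Pclaf stood at 1.46 and 67.2 CPM in tip-like cells and at 4.99 and 18.6 in the others, and Cdk1 at 1.46 and 61.3 against 0.665 and 21.1. The microtubule regulator Stmn1 stood at 42.4 and 335 CPM, and at 94.1 and 329 in the others. In the non-endothelial cells of day 3 Birc5, Ube2c and Pclaf stood at 75.5, 72.0 and 80.8 CPM, above the tip-like cells. Cdk1 and Stmn1 stood there at 44.2 and 292 CPM, below them. Summed over the list, cell cycle genes were at 1575 and 2452 CPM in tip-like cells of days 1 and 3, at 1264 and 1371 in the others, and at 1074 and 1204 in the intact cord. Between 20.8% and 23.6% of the day 3 UMIs of Birc5, Pclaf, Ube2c and Cdk1 came from 1 cell.

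The genes that were lower at day 3 include secreted factors of the first day. Lcn2, lipocalin 2, stood at 731 CPM at day 1 and 28.1 at day 3, a 26.0-fold difference (18.5 to 37.9) beside 18.5-fold in the other endothelial cells. Il11 had 215 UMIs at day 1 (62.9 CPM) and 0 at day 3, and 35.8% of those of day 1 were in 1 cell. The metalloproteinase gene Adamts9 stood at 442 and 56.2 CPM, a 7.87-fold difference (6.15 to 10.2). In the other endothelial cells it fell more, from 322 to 19.8 CPM or 16.3-fold (13.5 to 19.8). The phosphatase gene Plpp3 stood at 300 and 29.8 CPM, a 10.1-fold difference beside 6.10-fold in the others. Hbegf, an EGF receptor ligand, stood at 1193 and 190 CPM in tip-like cells and at 194 and 144 in the others, so its 6.29-fold difference (5.49 to 7.23) stood beside one of 1.34-fold (1.21 to 1.49). Akap12, a kinase scaffold, showed 7.10-fold beside 2.37-fold, and Emp1, a membrane protein, 6.32-fold beside 3.70-fold. Ackr1 was 11.2-fold lower at day 3 beside 8.78-fold in the other endothelial cells, and 46.2% of its 13 UMIs at day 3 were in 1 cell.

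Day 7 gave 7 tip-like cells and 30940 UMIs. Of 3318 genes against day 3, 304 (9.16%) were at least 2-fold higher and 760 (22.9%) at least 2-fold lower, and with TMM scaling these became 94 and 1333. Abhd2 stood at 2069 CPM at day 7 and 333 at day 3, with 62.5% of its UMIs in 1 cell. Itm2a stood at 4137 against 1714 and Tsc22d1 at 3135 against 1295, with 42.2% and 30.9% in 1 cell. Rgs5, listed here among the capillary genes, had 0 UMIs at day 7 and stood at 266 CPM at day 3. In the small day 7 sum the interval puts this fall at 2.22-fold or more, beside 2.28-fold in the other endothelial cells. The other genes that the naming rule gave for day 7 are not described because of the few cells.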

How the data were processed

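Single-cell RNA was counted as UMIs per gene and cell; the authors' deposited tables hold raw counts, made with Cell Ranger 3.0.2 per the submitters' processing notes. The aligner's genome build and the authors' cell filters were not given in the sources used here. The 28615 gene names shared by the 4 tables were used, and every deposited cell was kept. Counts were summed per class and library and tested with edgeR 4.0.16 (TMM, quasi-likelihood, robust, library as a term; R 4.3.3) for genes with a mean of at least 10 CPM, with Benjamini-Hochberg adjustment and a threshold of 0.05; only libraries with at least 20 tip-like cells entered. The pairing comes from both sums of a pair being from 1 library. Genes named are the 15 with the largest differences each way among those called, up to 4 called members of each list with the largest and 2 with the smallest change, and 8 each way between days. Some genes that this rule gives are not reported here. Other genes were named after their values were seen. The members and lists were chosen with earlier results of these data known. Where 1 library stands for a group, intervals cover counting error only. On simulated counts for this comparison (7652 genes) 60% of 2-fold rises, 48% of 2-fold falls and 100% of 4-fold rises and falls were recovered, with 0 false calls. The changed genes there had a mean of at least 50 CPM. Every gene had the same dispersion, and library effects were equal in both classes. The 0 false calls therefore do not cover genes of unequal dispersion or class differences that vary between days. Scrublet marked under 0.5% of the cells and so did not work; doublets were not otherwise removed. Alternatives used DESeq2 1.42.0, other scalings, filters, gates and thinning to 1000 UMIs.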

Additional observations from a re-analysis of the deposited data

Results flagged for a closer look

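For 7 named or listed genes the ratio of tip-like to other endothelial cells pointed opposite ways in different libraries, by at least 1.5-fold each way. With 1 library per day these differences were not tested. Gpx3 was 24.0-fold higher in the intact cord, from 2 UMIs, and 14.1-fold lower at day 1. Col18a1 was 1.89-fold higher at day 3 and 1.92-fold lower at day 1. Slc7a5 was 1.80-fold higher in the intact cord and 1.97-fold lower at day 3. Cav1 was 3.07-fold higher at day 1 and 2.30-fold lower in the intact cord. Clu was 1.61-fold higher at day 1 and 2.14-fold lower at day 3. Gja4 was 13.9-fold higher in the intact cord and 1.65-fold lower at day 1. Rgs5 was 7.90-fold higher in the intact cord and had 0 UMIs in the tip-like cells of day 7.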

How the results depend on the processing

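The number of calls depended on the setting more than the directions did. Against 211 higher and 261 lower genes, size factors of the RLE kind gave 359 and 388, no filter on low counts 357 and 392, a mean of at least 50 CPM 109 and 181, at least 3 UMIs 367 and 438, leaving out the 2 cells of these classes marked as doublets, both of day 1, 363 and 398, and DESeq2 115 and 115. Each of the 4 groups has only replicate 1, so replicate numbers pair nothing; without the replicate block (the library as a term) 0 genes were called higher and 0 lower by edgeR, with 370 at an unadjusted p under 0.05. Leaving out either library leaves 1 pair and no test. The median prior degrees of freedom were 12.05 in the reported fit, 109.1 with RLE size factors and 157.2 without the 2 cells; the cause was not tested. Among the 472 calls, the direction reversed for Cdk1 with cells thinned before the call (log2 fold change -0.29) and for Prdm16 (0.06), Apod (0.16) and Retnlg (0.87) without cells carrying other types' markers. It also reversed for Sfrp4 at day 1 without the highest cell (0.96) and for Rgs5, which was not called (0.04), without cells carrying mural and fibroblast markers (-0.90). These last 2 settings were chosen after seeing the data.

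The share of tip-like cells, in percent, was 19.3 at day 1, 2.07 at day 3 and 0.172 at day 7 with cells thinned. With at least 1 UMI it was 3.26, 49.5, 13.8 and 3.01 from intact to day 7. With at least 3 UMIs it was 0.258 in the intact cord, 33.0 at day 1 and 4.64 at day 3. Without Apln it was 28.8 at day 1 and 4.64 at day 3, and without Angpt2 0.258, 31.3 and 5.43 from intact to day 3. Without cells carrying other types' markers it was 0 (0 of 176 cells), 34.6 (89 of 257), 13.5 (33 of 244) and 2.04 (1 of 49). Genes at least 2-fold higher and lower at day 3 than at day 1 numbered 510 and 1151 with a minimum of 20 UMIs, 169 and 494 with 100, and 138 and 324 without such cells. At day 7 against day 3 they were 94 and 1333 with TMM, 734 and 2035 with a minimum of 20 UMIs and 115 and 351 with 100. The 8 and 7 tip-like cells of the intact cord and day 7 limit every value there to counting error of few molecules.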

Other observations

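Outside the endothelium, Esm1 was found in 43 cells of day 3 with 109 UMIs, 83 of them in cells below the endothelial gate that were not phagocytes. In the 13 cells of day 3 with at least 3 Esm1 UMIs the summed fibroblast markers stood at 16603 CPM against 520 over all cells. These cells were looked at after the values were seen.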
